A study of Mus musculus with 9 samples.

Results

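Integrins and laminins were followed across the ischemic zone (IZ), the border zone (BZ) and the remote non-ischemic zone (NIZ) of mouse hearts after ischemia–reperfusion (I/R). The members were all transcript clusters of the array whose only gene symbol names an integrin α or β chain or a laminin α, β or γ chain, which left out Itgb1bp, Itgbl1, Lamp and Lamtor genes. The rule took 36 genes, each with 1 cluster, of the 30087 gene symbols that a cluster carried alone and of 65534 clusters in all. They comprised 17 integrin α chains, 9 integrin β chains and 10 laminin chains. All 36 lay above the array median, which was 4.19 to 4.29 on the log2 scale, on each of the 9 arrays. Itga1 shared its cluster with another gene and was not analysed here.

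Integrins are heterodimeric receptors of 1 α and 1 β chain that hold cells to the extracellular matrix or to other cells and signal through adaptors at their cytoplasmic tails. Laminins are cross-shaped trimers of an α, a β and a γ chain that build the sheet-like core of basement membranes, and each cardiomyocyte is wrapped in such a membrane and anchored to it through integrins and dystroglycan. Leukocytes carry their own integrins, with which they adhere to activated endothelium and leave the blood, a step that is well known in reperfused myocardium.

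The 9 arrays measured total RNA of left ventricular tissue from 3 male C57BL/6J mice aged 8 weeks, with 3 samples each of IZ, BZ and NIZ. The left anterior descending coronary artery had been tied for 45 min and reperfused for 24 h in every animal, so NIZ is remote tissue of an injured heart and not sham tissue. Samples of a zone are numbered from 1 to 3 in the labels, with no statement of which mouse each number stands for, so the p-values below measure the spread between these samples. Samples were whole tissue, in which fewer cells of a type and less RNA per cell cannot be told apart. A label field reads brain although the source is given as heart. All 10 cardiomyocyte markers lay above the array median on every array, with a mean of 11.89 to 12.27 on the log2 scale. Of 7 brain markers, 4 lay at or below the array median throughout, and the mean of the 7 was 4.22 to 4.30.

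No integrin or laminin chain passed the test in any comparison. With limma and Benjamini–Hochberg adjustment over all 65534 clusters, the lowest adjusted p of a member was 0.999 for IZ and 0.854 for BZ, each set against NIZ, and 0.943 between IZ and BZ. The share of all clusters called at an adjusted p under 0.05 was 0% in each of the 3 comparisons, so the lack of calls is not particular to the members. The values below are therefore given as levels and differences with their errors, and a low unadjusted p is not a call. At an unadjusted p under 0.05, 2 members were higher in IZ than in NIZ, Itga4 and Itgal, where 1.24% of all clusters were, and 0 were lower, where 2.72% of all clusters were. Likewise 4 members were higher in BZ than in NIZ, Itga4, Itgal, Itgb7 and Itgb8, where 2.19% of all clusters were, and 1 was lower, Lama2, where 3.09% were. Itga4 and Itgal were thus in both sets. In IZ against BZ, 0 members were higher, where 1.26% of all clusters were, and 0 were lower, where 2.58% were.

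Over the 36 members, the difference IZ minus NIZ was above 0 for 20 and below 0 for 13, with a median of 0.04 on the log2 scale. Of all clusters, 39.7% were above 0 and 58.5% below it, with a median of -0.01. The difference BZ minus NIZ was above 0 for 27 members and below 0 for 8, with a median of 0.06. Of all clusters, 51.5% were above 0 and 47.7% below it, with a median of 0.00. Some of the 27 rest on 1 array: for Itgad, Lama1 and Lamc3, BZ numbers 1 and 2 equalled NIZ and only number 3 was higher. Without single samples or numbers, the BZ median of the members ranged from 0.039 (without BZ replicate 3) to 0.072. The medians of the members thus lay slightly above those of all clusters in both zones. IZ minus BZ was above 0 for 15 members and below 0 for 20, with a median of -0.01, against a median of -0.02 over all clusters. The groups of integrins were further apart than the groups of laminins: relative to NIZ, the 9 leukocyte integrins had medians of 0.29 (IZ) and 0.27 (BZ), the 8 RGD-binding and platelet integrins 0.09 (IZ) and 0.12 (BZ), and the 4 laminin-binding integrins -0.07 (IZ) and -0.08 (BZ). The 5 laminin α chains had medians of 0.03 (IZ) and 0.05 (BZ), and the 5 laminin β and γ chains -0.02 (IZ) and 0.04 (BZ).

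**Figure D1:**
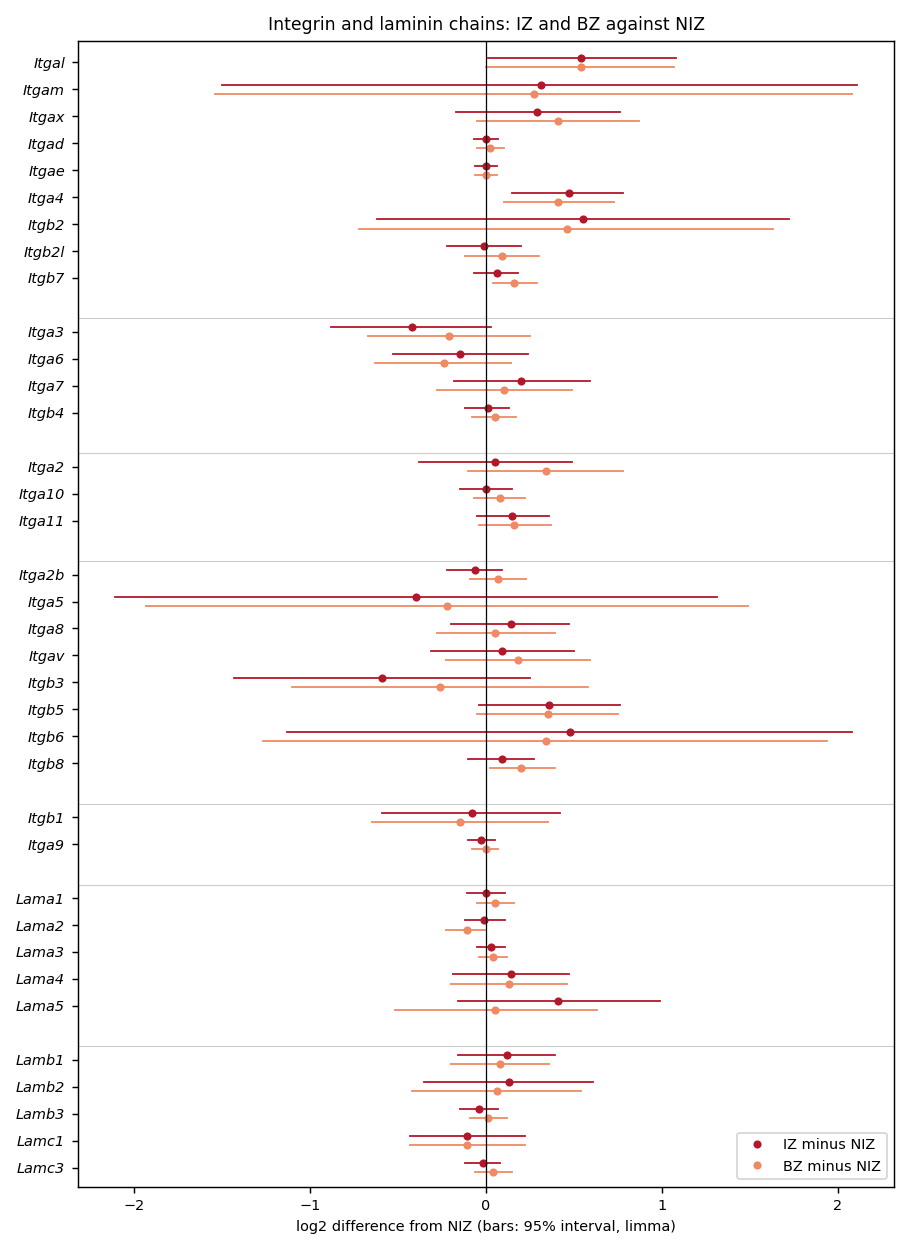
Difference of each of the 36 chains from NIZ on the log2 scale (x axis), IZ above BZ for each gene, with the limma estimate as a point and its 95% interval as a bar; thin lines separate the groups of leukocyte, laminin-binding, collagen-binding, RGD-binding and platelet, and shared integrin chains, laminin α chains, and laminin β and γ chains. Itga4 and, by a narrow margin, Itgal have intervals above 0 in both zones. Itgb7 and Itgb8 have them above 0 in BZ only, and the BZ interval of Lama2 lies just below 0. Itgam, Itga5 and Itgb6 have the widest intervals, and most laminin chains lie close to 0.

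Several members differed widely between samples of 1 zone. The median SD within zones was 0.19 for the members, 0.10 for all clusters and 0.09 for clusters with a single gene symbol, on the log2 scale. Of all clusters, 99.9% had a smaller SD than Itgam, 99.8% than Itga5, 99.7% than Itgb6, 99.3% than Itgb2 and 98.5% than Itgb3. Exactly repeated values were also common: 24 of the 36 members, and 71.4% of all clusters, had at least 1 value that recurred on another array, and Itgae stood at 4.32 on all 9 arrays.

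The leukocyte integrins were higher in injured tissue than in NIZ for most chains, without any passing the adjusted test. Of the 9 chains, 6 had a higher and 1 a lower mean in IZ than in NIZ, and 8 had a higher and 0 a lower mean in BZ than in NIZ. Integrin α4, encoded by Itga4 on chromosome 2, pairs with β1 or β7 and binds VCAM-1 and fibronectin on the way of monocytes and lymphocytes out of the blood. Itga4 measured 6.24, 6.03 and 5.85 in IZ, 6.25, 5.85 and 5.85 in BZ, and 5.62, 5.46 and 5.64 in NIZ for sample numbers 1, 2 and 3, on the log2 scale. Every IZ and every BZ value lay above every NIZ value, and 5.85 recurred exactly in IZ and BZ. The difference was 0.47 ± 0.14 (SE, n = 3 each) for IZ against NIZ, a 1.38-fold higher level, with an unadjusted limma p of 0.00934 and an adjusted p of 0.999. For BZ against NIZ it was 0.41 ± 0.14, with an unadjusted limma p of 0.0168 and an adjusted p of 0.854. The exact permutation test (two-sided) gave 0.1 for both, the smallest p that 3 samples against 3 allow. A limma fit with a block for the replicate number gave an unadjusted p of 0.00274 for IZ and 0.00495 for BZ (adjusted p 0.807 and 0.669).

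Of the members, 1 did not overlap with NIZ and was higher in IZ, Itga4, beside 1.78% of all clusters, and 2 were lower, Itga2b and Itga3, beside 4.55%. In BZ, Itga4 and Itgb8, 2 members, were above NIZ without overlap, beside 2.51% of all clusters, and 0 were below it, beside 3.72%. Between IZ and BZ, 0 members were higher without overlap, beside 2.24% of all clusters, and 3 were lower, Itga2b, Itga3 and Itgb8, beside 3.53%.

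The 250 bases before the gene start are shown for Itga4, Itgam and Itgax, 3 leukocyte chains, because 8 of the 9 members of this group were higher in BZ than in NIZ while their overlap and spread differed, Itga4 having no overlap with NIZ and Itgam the widest spread within zones. The sequences are those of RefSeq, build GRCm38.p6, 5′ to 3′ on the coding strand, at chr2:79255176-79255425 (+), chr7:128062390-128062639 (+) and chr7:128129300-128129549 (+). Capitals mark matches to GAGGAA, a core bound by the Ets factor PU.1 of myeloid cells, or to TGTGGT, a core bound by Runx factors, searched on both strands (TTCCTC and ACCACA on the other strand).
Itga4: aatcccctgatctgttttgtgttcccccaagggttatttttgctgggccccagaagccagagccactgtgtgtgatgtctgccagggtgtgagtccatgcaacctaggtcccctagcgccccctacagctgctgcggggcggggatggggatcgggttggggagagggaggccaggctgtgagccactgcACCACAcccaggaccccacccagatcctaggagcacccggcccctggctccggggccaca
Itgam: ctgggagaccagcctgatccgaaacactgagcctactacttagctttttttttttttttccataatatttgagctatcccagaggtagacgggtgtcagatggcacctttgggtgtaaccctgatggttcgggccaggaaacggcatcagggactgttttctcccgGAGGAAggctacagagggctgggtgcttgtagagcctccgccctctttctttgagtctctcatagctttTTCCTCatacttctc
Itgax: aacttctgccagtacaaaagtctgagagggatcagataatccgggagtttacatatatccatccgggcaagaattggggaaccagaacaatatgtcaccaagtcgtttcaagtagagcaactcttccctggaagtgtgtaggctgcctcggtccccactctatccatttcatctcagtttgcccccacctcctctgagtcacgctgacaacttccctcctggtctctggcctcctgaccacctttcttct
Itga4 held 1 match to TGTGGT, on the opposite strand 60 bases before the start, and none to GAGGAA. Itgam held 2 matches to GAGGAA, 84 bases before the start on the coding strand and 15 bases before it on the opposite strand, and Itgax held none to either. Of the other leukocyte chains with a window, not printed, Itgb2l held 2 matches to GAGGAA and Itgb7 none to either motif. No match to one motif overlapped a match to the other. The RefSeq table gave 26 windows for 23 of the members, of which 14 windows held GAGGAA and 2 held TGTGGT. The windows with GAGGAA belonged to 2 of the 5 leukocyte chains with a window and to 12 other members, 5 of them laminins. Of 32851 windows of the same length over all genes, 23.3% held GAGGAA and 14.0% held TGTGGT. A match describes letters in this window and is not a site shown to be bound.

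Integrin αL, encoded by Itgal, forms LFA-1 with β2 and binds ICAM-1. Itgal measured 6.77, 6.55 and 6.43 in IZ, 6.98, 6.42 and 6.33 in BZ, and 6.43, 6.02 and 5.68 in NIZ. The NIZ sample number 1 reached the lowest IZ value and lay above BZ numbers 2 and 3. The other NIZ samples lay below every IZ and BZ value. The difference was 0.54 ± 0.23 (SE, n = 3 each) for IZ against NIZ, with an unadjusted limma p of 0.0472, and 0.54 for BZ against NIZ, with an unadjusted limma p of 0.0489. Both had adjusted p-values of 0.854 or above, and the exact permutation test (two-sided) gave 0.2 for IZ and 0.3 for BZ. A block for the replicate number gave an unadjusted limma p of 0.00102 for IZ and 0.00107 for BZ (adjusted p 0.807 and 0.669). The difference was 0.36 for both zones without NIZ replicate 3, and 0.33 for BZ without BZ replicate 1. Without NIZ replicate 1 it was 0.74 for IZ and 0.73 for BZ. Integrin αX, encoded by Itgax and carried by dendritic cells and macrophages, measured 5.68, 5.31 and 5.17 in IZ, 5.90, 5.31 and 5.31 in BZ, and 5.31, 5.03 and 4.94 in NIZ. Its differences were 0.29 (95% interval -0.17 to 0.76) for IZ and 0.41 (-0.05 to 0.87) for BZ against NIZ. The replicate block gave an unadjusted limma p of 0.0047 for IZ and 0.00094 for BZ (adjusted p 0.807 and 0.669). Number 1 was high in each zone. The difference was 0.15 for IZ without IZ replicate 1, and 0.21 for BZ without BZ replicate 1.

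Integrin β2, encoded by Itgb2, is the partner chain of αL, αM, αX and αD. Itgb2 measured 8.93, 8.60 and 8.21 in IZ, 9.46, 8.26 and 7.74 in BZ, and 8.76, 8.02 and 7.30 in NIZ. Zones overlapped, and in each zone sample number 1 was high and sample number 3 low. The differences of 0.55 ± 0.50 (SE, n = 3 each) for IZ and 0.46 ± 0.50 for BZ against NIZ were thus close to their standard errors. These errors include the spread between numbers. With a block for the replicate number, the unadjusted limma p was 0.032 for IZ and 0.0603 for BZ (adjusted p 0.807 and 0.669). A block with only the BZ and NIZ arrays, chosen after seeing the data, gave 0.0145 for BZ (adjusted p 0.724). Without NIZ replicate 3 the differences were 0.19 for IZ and 0.09 for BZ, and without NIZ replicate 1 they were 0.92 for IZ and 0.82 for BZ. Without BZ replicate 1 the difference for BZ was -0.03, a fit that kept the high number 1 of NIZ. Without replicate 3 in all zones the differences were 0.37 for IZ and 0.47 for BZ. Integrin αM, encoded by Itgam, forms Mac-1 with β2 on neutrophils, monocytes and macrophages. Itgam measured 9.92, 9.58 and 9.00 in IZ, 10.77, 9.23 and 8.40 in BZ, and 10.44, 9.36 and 7.79 in NIZ. The IZ values lay inside the span of the NIZ values, and the differences were 0.31 (95% interval -1.50 to 2.11) for IZ and 0.27 (-1.54 to 2.08) for BZ against NIZ. Without NIZ replicate 3 they were -0.40 for IZ and -0.43 for BZ, and without NIZ replicate 1 they were 0.93 for IZ and 0.90 for BZ.

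Integrin β7, encoded by Itgb7, pairs with α4 or αE on lymphocytes. Itgb7 measured 6.45, 6.43 and 6.41 in IZ, 6.55, 6.43 and 6.62 in BZ, and 6.43, 6.36 and 6.34 in NIZ. The BZ values reached down to the highest NIZ value, and the difference was 0.16 ± 0.05 (SE, n = 3 each), with an unadjusted limma p of 0.0186 and an adjusted p of 0.854. The value 6.43 recurred exactly in all zones. The remaining leukocyte chains differed little: Itgad, Itgae and Itgb2l had differences from NIZ between -0.01 and 0.09 in both zones.

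**Figure D2:**
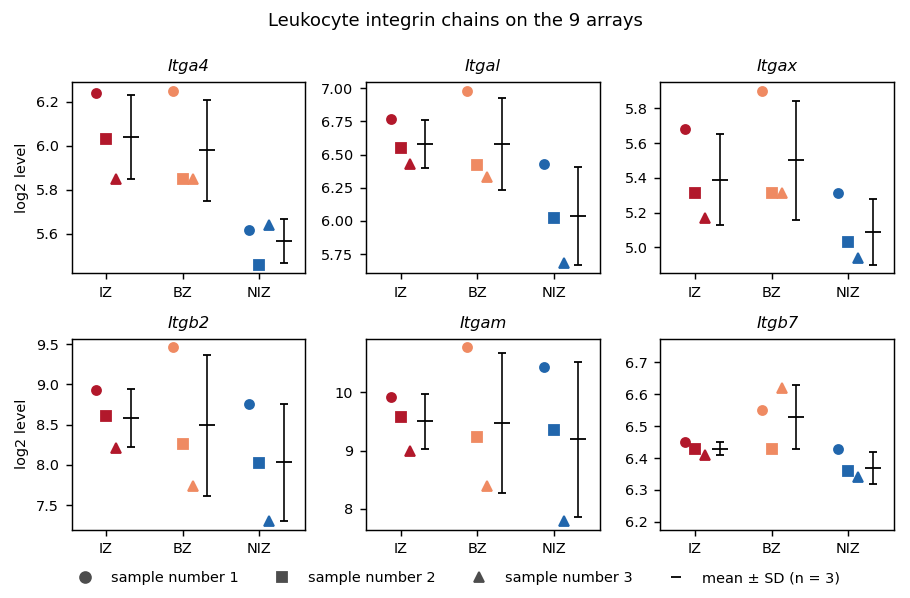
Log2 level (y axis, scaled per gene) of 6 leukocyte integrin chains in IZ, BZ and NIZ, each point a sample with its shape giving the sample number, and mean ± SD (n = 3) beside the points. Itga4 is above all NIZ samples in every IZ and BZ sample, whereas Itgb2 and Itgam overlap widely between zones and are high in number 1 and low in number 3.

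Markers of leukocytes differed between the same samples. The 15 monocyte and macrophage markers, all above the array median on the 9 arrays, were higher in IZ than in NIZ for 14, with a median of 0.48, and higher in BZ than in NIZ for 13, with a median of 0.46. Their mean level was 8.36 to 8.81 in IZ, 8.17 to 9.00 in BZ and 8.02 to 8.38 in NIZ, so that the zones overlapped. Of the 12 lymphocyte markers, 10 lay above the array median on all 9 arrays and 1 at or below it throughout. Against NIZ, 9 were higher and 3 lower in IZ, and 11 were higher and 1 lower in BZ. The list had a median difference from NIZ of 0.26 for IZ and 0.19 for BZ. Its mean level was 4.86 to 5.31 in IZ, 4.96 to 5.19 in BZ and 4.80 to 4.89 in NIZ. For lymphocyte markers the BZ range lay above the NIZ range, and the IZ range overlapped it. The 11 neutrophil markers, all above the array median throughout, varied as a list mainly within zones, with a mean level of 7.31 to 8.00 in IZ, 6.27 to 8.87 in BZ and 5.92 to 8.77 in NIZ. Single markers differed: Camp had an SD within zones of only 0.09. In IZ against NIZ, 6 markers were higher and 5 lower. Relative to their own mean over the 9 arrays, neutrophil markers stood at -0.25, -0.23 and 0.44 in IZ, at 1.31, 0.27 and -1.29 in BZ, and at 1.21, 0.18 and -1.64 in NIZ for numbers 1, 2 and 3. The leukocyte integrins stood at 0.24, 0.07 and -0.08 in IZ, at 0.47, -0.03 and -0.17 in BZ, and at 0.15, -0.18 and -0.48 in NIZ. Both lists were thus high in number 1 and low in number 3 of BZ and NIZ, while in IZ they went opposite ways. The part of these cells in the integrin values was not tested.

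**Figure D3:**
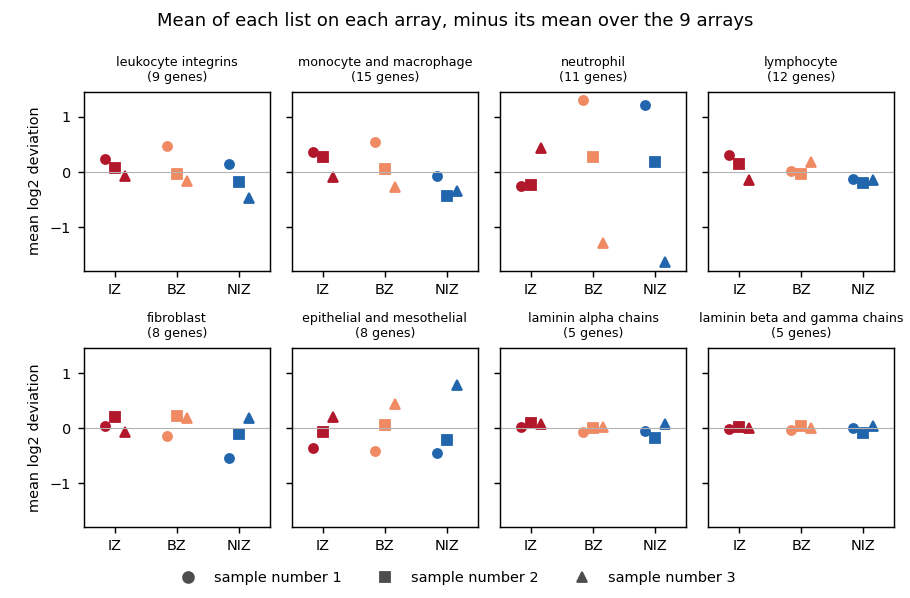
Mean log2 deviation of each gene list from its own mean over the 9 arrays (y axis), one point per sample with its shape giving the sample number, by zone. Neutrophil markers span 1.31 to -1.29 in BZ and 1.21 to -1.64 in NIZ, leukocyte integrins follow the same order of numbers there over a smaller span, and both groups of laminin chains stay near 0 in every sample.

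Among RGD-binding and platelet integrins, 5 of 8 had a higher and 3 a lower mean in IZ than in NIZ, and 6 had a higher and 2 a lower mean in BZ than in NIZ. Integrin β5, encoded by Itgb5, pairs with αv and binds vitronectin. Itgb5 measured 9.27, 9.35 and 9.12 in IZ, 9.18, 9.40 and 9.12 in BZ, and 8.51, 8.90 and 9.23 in NIZ. NIZ numbers 1 and 2 lay below all IZ and BZ values and NIZ number 3 lay among them. The differences were 0.36 ± 0.17 (SE, n = 3 each) for IZ, with an unadjusted limma p of 0.0694, and 0.35 ± 0.17 for BZ against NIZ, with an unadjusted limma p of 0.0763. Without NIZ replicate 3 they were 0.54 for IZ and 0.53 for BZ, with limma adjusted p-values of 0.332 (IZ) and 0.390 (BZ), and without NIZ replicate 1 they were 0.18 for IZ and 0.17 for BZ.

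Integrin β3, encoded by Itgb3, is the partner of αIIb on platelets and of αv on endothelial cells and macrophages. Itgb3 measured 6.10, 5.99 and 5.88 in IZ, 6.68, 6.27 and 6.00 in BZ, and 7.40, 6.50 and 5.84 in NIZ. NIZ spanned the values of both other zones, and the differences were -0.59 (95% interval -1.43 to 0.25) for IZ and -0.26 (-1.10 to 0.58) for BZ against NIZ. Without NIZ replicate 1 they were -0.18 for IZ and 0.15 for BZ, and without NIZ replicate 3 they were -0.96 for IZ and -0.63 for BZ. The other platelet chain, αIIb of the fibrinogen receptor encoded by Itga2b, measured 5.83, 5.81 and 5.87 in IZ, 5.89, 5.89 and 6.13 in BZ, and 5.93, 5.89 and 5.89 in NIZ. It did not overlap between IZ and NIZ, but the difference was only -0.06 on the log2 scale. The 6 platelet and megakaryocyte markers had a mean level of 6.18 to 6.38 in IZ, 6.23 to 6.82 in BZ and 6.20 to 6.70 in NIZ, and their part in these values was not tested.

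Integrin α5, encoded by Itga5, forms the classical fibronectin receptor with β1. Itga5 measured 9.86, 9.25 and 8.72 in IZ, 10.48, 9.53 and 8.34 in BZ, and 11, 9.54 and 8.48 in NIZ. The gap between numbers 1 and 3 was larger in every zone than any difference between zone means, which was -0.40 ± 0.73 (SE, n = 3 each) for IZ and -0.22 ± 0.73 for BZ against NIZ. Without NIZ replicate 1 these were 0.27 for IZ and 0.44 for BZ, and without NIZ replicate 3 they were -0.99 for IZ and -0.82 for BZ. Integrin β6, encoded by Itgb6, is known as an epithelial partner of αv that activates TGF-β. Itgb6 measured 5.97, 5.86 and 6.94 in IZ, 5.51, 5.56 and 7.28 in BZ, and 5.03, 5.20 and 7.11 in NIZ. Number 3 was high in all zones, and the differences were 0.48 ± 0.69 for IZ and 0.34 ± 0.69 for BZ against NIZ. These errors include the spread between numbers. With a block for the replicate number, the unadjusted limma p was 0.0603 for IZ and 0.153 for BZ. A block with only the BZ and NIZ arrays, chosen after seeing the data, gave 0.0147 for BZ (adjusted p 0.724). Without NIZ replicate 1 the differences were 0.10 for IZ and -0.04 for BZ, and without NIZ replicate 3 they were 1.14 for IZ and 1.00 for BZ. The 8 epithelial and mesothelial markers, of which 7 were above the array median on all arrays, stood at -0.35, -0.07 and 0.20 in IZ, at -0.41, 0.07 and 0.45 in BZ, and at -0.45, -0.21 and 0.78 in NIZ, relative to their mean. They were likewise high in number 3 of each zone, and their part in the Itgb6 values was not tested.

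Integrin β8, encoded by Itgb8, is another partner of αv that activates TGF-β. Itgb8 measured 4.97 in each IZ sample, 4.99, 5.27 and 5.01 in BZ, and 4.80, 4.87 and 4.97 in NIZ. BZ lay above NIZ without overlap by 0.20 ± 0.08 (SE, n = 3 each), with an unadjusted limma p of 0.0358 and an adjusted p of 0.854. The difference was 0.11 without BZ replicate 2. The value 4.97 recurred exactly in the IZ samples and NIZ number 3, and the IZ SD of 0.00 entered this standard error. Itgav, encoding αv itself, had differences of 0.09 for IZ and 0.18 for BZ, and Itga8, encoding a chain of fibroblasts and smooth muscle, had 0.14 for IZ and 0.05 for BZ against NIZ. Their standard errors were 0.18 for Itgav and 0.14 for Itga8.

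**Figure D4:**
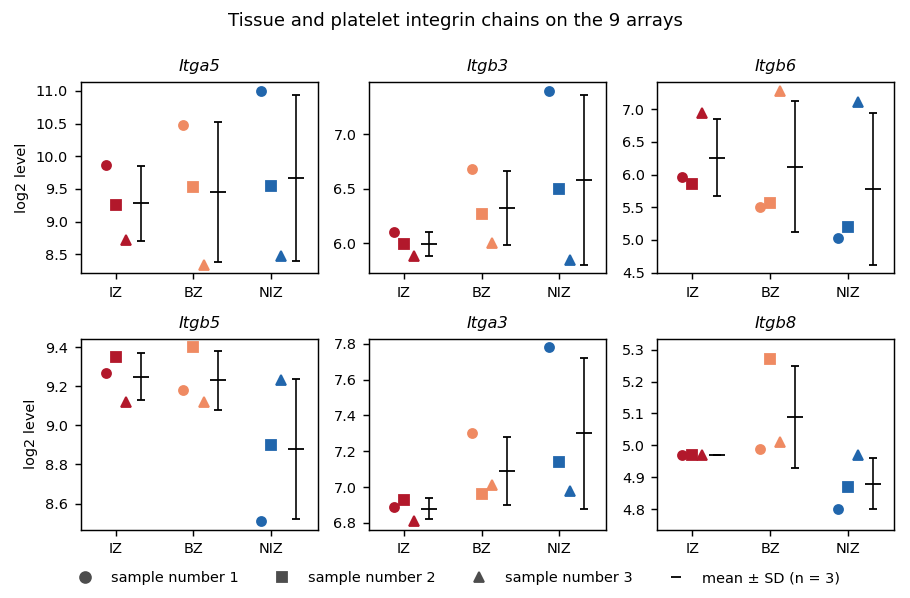
Log2 level (y axis, scaled per gene) of 6 tissue and platelet integrin chains in IZ, BZ and NIZ, each point a sample with its shape giving the sample number, and mean ± SD (n = 3) beside the points. Itga5 and Itgb3 are high in number 1 and Itgb6 in number 3 within zones, the NIZ samples of Itgb5 span 8.51 to 9.23, and all IZ samples of Itga3 lie below the NIZ samples.

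The laminin-binding integrins went different ways, with 2 of 4 above and 2 below 0 in both zones. Integrin α3, encoded by Itga3, forms a laminin receptor with β1 that is best known from epithelia. Itga3 measured 6.89, 6.93 and 6.81 in IZ, 7.30, 6.96 and 7.01 in BZ, and 7.78, 7.14 and 6.98 in NIZ. All IZ values lay below all BZ and all NIZ values, and the difference IZ minus NIZ was -0.42 ± 0.20 (SE, n = 3 each), a 0.745-fold level, with an unadjusted limma p of 0.0649, an adjusted p of 0.999 and an exact permutation p of 0.1 (two-sided). The difference BZ minus NIZ was -0.21 ± 0.20. Without NIZ replicate 1, which stood above all other samples, the differences were -0.19 for IZ and 0.03 for BZ. Integrin α7, encoded by Itga7, forms with β1 the main laminin receptor of striated muscle. Itga7 measured 9.47, 9.28 and 9.08 in IZ, 9.43, 9.18 and 8.94 in BZ, and 9.20, 9.22 and 8.81 in NIZ. Zones overlapped, and the differences were 0.20 (95% interval -0.18 to 0.59) for IZ and 0.10 (-0.28 to 0.49) for BZ against NIZ, or 0.07 for IZ and -0.03 for BZ without NIZ replicate 3. Itga6, whose chain pairs with β1 or β4, had differences of -0.15 for IZ and -0.24 for BZ, and Itgb4, whose chain belongs to hemidesmosomes, had 0.01 for IZ and 0.05 for BZ against NIZ.

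Integrin β1, encoded by Itgb1, is the common partner of the collagen, laminin and fibronectin receptors. Itgb1 measured 11.38, 11.12 and 10.99 in IZ, 11.41, 11.15 and 10.74 in BZ, and 11.61, 11.15 and 10.98 in NIZ. The zones overlapped over nearly their whole span, and the differences were -0.08 (95% interval -0.59 to 0.42) for IZ and -0.15 (-0.65 to 0.35) for BZ against NIZ, or 0.10 for IZ and 0.03 for BZ without NIZ replicate 1. Itga9, whose chain pairs with β1, lay between 7.60 and 7.68 on all arrays. Of the collagen receptors, Itga11, whose chain is known from fibroblasts, measured 5.91, 5.88 and 5.84 in IZ, 5.84, 5.84 and 5.98 in BZ, and 5.64, 5.61 and 5.94 in NIZ. NIZ number 3 lay with the IZ and BZ samples, and the differences of 0.15 for IZ and 0.16 for BZ became 0.25 (IZ) and 0.27 (BZ) without NIZ replicate 3, with limma adjusted p-values of 0.204 (IZ) and 0.214 (BZ), and 0.09 (IZ) and 0.10 (BZ) without NIZ replicate 2. The 8 fibroblast markers stood at 0.05, 0.20 and -0.06 in IZ, at -0.14, 0.23 and 0.19 in BZ, and at -0.54, -0.10 and 0.19 in NIZ relative to their mean, so they too were high in NIZ number 3, and their part in the Itga11 values was not tested. Itga2 stood between 4.33 and 4.54 on 8 arrays and at 5.28 in BZ number 1, and Itga10 had differences from NIZ of -0.00 in IZ and 0.08 in BZ.

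Laminin chains had differences close to 0 for the most part, with 5 of 10 above 0 and 4 below it in IZ, and 8 above and 2 below it in BZ, against NIZ. Of the 8, Lama1, Lamb3 and Lamc3 were above 0 only through BZ number 3, by 0.01 to 0.05. Laminin α2, encoded by Lama2, is the α chain of the membrane around muscle fibres, and its loss causes congenital muscular dystrophy. Lama2 measured 8.74, 8.81 and 8.74 in IZ, 8.62, 8.74 and 8.60 in BZ, and 8.82, 8.74 and 8.74 in NIZ. BZ reached up to the lowest NIZ value, and its difference from NIZ was -0.11 ± 0.05 (SE, n = 3 each), with an unadjusted limma p of 0.0494 and an adjusted p of 0.854. The value 8.74 recurred exactly in all zones. The difference IZ minus NIZ was -0.01 (95% interval -0.12 to 0.11).

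Laminin α4 and α5, encoded by Lama4 and Lama5, are the α chains of vascular basement membranes. Lama4 measured 8.55, 8.50 and 8.28 in IZ, 8.51, 8.35 and 8.43 in BZ, and 8.51, 7.97 and 8.43 in NIZ. NIZ number 2 stood below all other samples, and the differences were 0.14 (95% interval -0.19 to 0.47) for IZ and 0.13 (-0.20 to 0.46) for BZ against NIZ, or -0.02 for IZ and -0.04 for BZ without that sample. Lama5 measured 7.59, 7.95 and 8.13 in IZ, 7.27, 7.69 and 7.63 in BZ, and 7.18, 7.24 and 8.01 in NIZ. NIZ number 3 again lay with the IZ samples, and the differences were 0.41 (-0.16 to 0.99) for IZ and 0.05 (-0.52 to 0.63) for BZ against NIZ. Without NIZ replicate 3 the difference in IZ was 0.68, with a limma adjusted p of 0.355, and without NIZ replicate 1 the differences were 0.26 for IZ and -0.10 for BZ. The direct difference IZ minus BZ of Lama5 was 0.36, with an unadjusted limma p of 0.185, and was 0.23 without BZ replicate 1. Of 11 endothelial markers, 9 had a lower mean in IZ than in NIZ and 9 in BZ than in NIZ, with medians of -0.05 for IZ and -0.15 for BZ, and the part of endothelial RNA in these values was not tested. The other α chains, Lama1 of embryonic membranes and Lama3 of skin and other epithelia, had differences from NIZ between -0.00 and 0.05 in both zones.

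Laminin β1 and β2, encoded by Lamb1 and Lamb2, join α and γ chains in muscle and vessel membranes. Lamb1 measured 8.61, 8.60 and 8.44 in IZ, 8.54, 8.48 and 8.53 in BZ, and 8.63, 8.14 and 8.53 in NIZ. NIZ number 2 was low here as it was for Lama4, and the differences were 0.12 ± 0.12 (SE, n = 3 each) for IZ and 0.08 ± 0.12 for BZ against NIZ, or -0.03 for IZ and -0.06 for BZ without that sample. Lamb2 measured 9.23, 9.51 and 9.63 in IZ, 9.07, 9.62 and 9.47 in BZ, and 8.99, 9.33 and 9.66 in NIZ. Number 1 was low in each zone, and the differences were 0.13 ± 0.21 for IZ and 0.06 ± 0.21 for BZ against NIZ, or -0.04 for IZ and -0.11 for BZ without NIZ replicate 1. Laminin γ1, encoded by Lamc1, is the γ chain of most laminins. Lamc1 measured 9.88, 9.78 and 9.58 in IZ, 9.95, 9.78 and 9.52 in BZ, and 10.08, 9.75 and 9.74 in NIZ. Its differences were -0.11 for both IZ and BZ against NIZ (95% interval -0.43 to 0.22), and 0.00 for both without NIZ replicate 1. Lamb3 and Lamc3, of epithelial and neural laminins, had differences from NIZ between -0.04 and 0.04 in both zones.

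**Figure D5:**
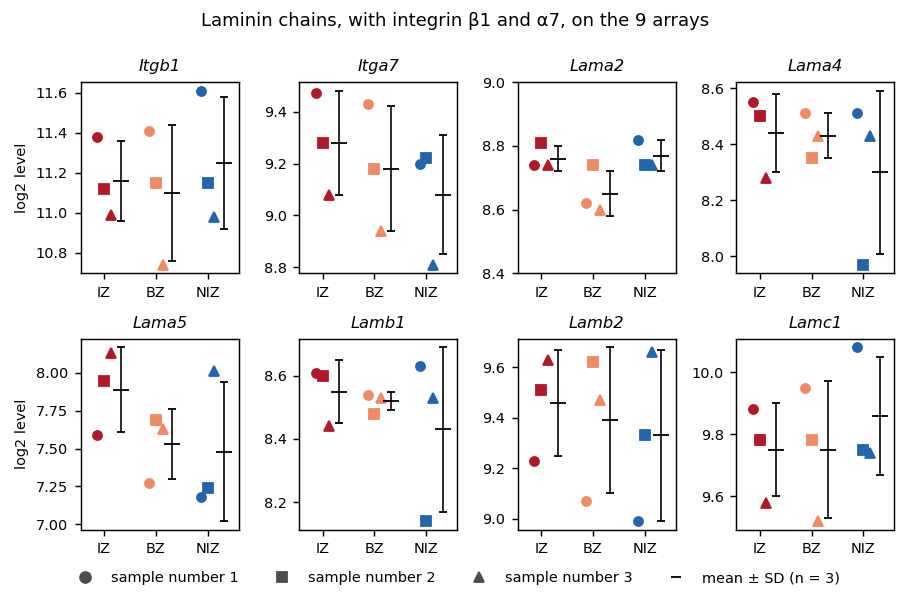
Log2 level (y axis, scaled per gene) of integrin β1 and α7 and of 6 laminin chains in IZ, BZ and NIZ, each point a sample with its shape giving the sample number, and mean ± SD (n = 3) beside the points. The zones overlap for each of the 8 genes, and single NIZ samples stand apart for Lama4, Lama5 and Lamb1.

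Samples of the same number in BZ and NIZ deviated together, so their differences were also read within numbers. In all 3 numbered pairs BZ was higher than NIZ for 10 members, Itga2, Itga4, Itga11, Itgal, Itgax, Itgb2, Itgb2l, Itgb6, Itgb7 and Itgb8, where 10.4% of all clusters were. It was lower in all 3 pairs for 3 members, Itga5, Itga6 and Itgb1, where 13% of all clusters were. Of the 9 leukocyte integrins, 6 were among the 10 higher members. For Itgal the differences within numbers 1, 2 and 3 were 0.56, 0.40 and 0.65, and for Itgax they were 0.59, 0.27 and 0.36. For Itga4 they were 0.63, 0.39 and 0.22, and for Itgb2 they were 0.70, 0.24 and 0.44. Itgb7 gave 0.13, 0.07 and 0.28, and Itgb2l gave 0.01, 0.09 and 0.17. Itgam gave 0.33, -0.12 and 0.61, which is not the same sign throughout. In 8 members, Itga5, Itgal, Itgam, Itgb1, Itgb2, Itgb2l, Itgb3 and Lamc1, number 1 was highest and number 3 lowest in both BZ and NIZ, which was so for 5.7% of all clusters. The opposite order was found for 2 members, Itgb4 and Itgb6, and for 6.19% of all clusters.

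None of the genes for proteins that integrins work with passed the adjusted test either. Of 23 adaptors and kinases at integrin tails, 6 were above and 16 below 0 in IZ against NIZ, with a median of -0.05, and 12 were above and 11 below 0 in BZ against NIZ, with a median of 0.01. Kindlin-3, encoded by Fermt3 and carried by blood cells, measured 7.52, 7.44 and 7.26 in IZ, 8.01, 7.43 and 7.30 in BZ, and 7.54, 7.30 and 6.88 in NIZ. Its differences of 0.16 for IZ and 0.34 for BZ had the sign of the leukocyte integrins, as had 0.22 (IZ) and 0.26 (BZ) for Parvg, the parvin of blood cells. Standard errors were 0.22 for Fermt3 and 0.15 for Parvg in both zones. Kindlin-2, encoded by Fermt2 and found in muscle and connective tissue, had differences of -0.28 ± 0.24 (SE) for IZ and -0.30 ± 0.24 for BZ. Its NIZ values were 11.27, 10.64 and 10.38. Tgfb1i1, encoding the adaptor Hic-5, had -0.31 ± 0.25 for IZ and -0.11 ± 0.25 for BZ. Of this list, Lims1, encoding the PINCH adaptor of integrin-linked kinase, had an unadjusted limma p of 0.0428 for a difference of 0.21 in IZ against NIZ.

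Of 19 basement membrane partners and laminin receptors, 9 were above and 9 below 0 in IZ, and 11 above and 8 below 0 in BZ, against NIZ, with medians of -0.00 for IZ and 0.00 for BZ. Col15a1, encoding a collagen that links basement membranes to the matrix, measured 8.39, 7.82 and 7.43 in IZ, 8.13, 7.50 and 7.70 in BZ, and 7.51, 6.98 and 7.62 in NIZ. The zones overlapped, and the differences were 0.51 ± 0.28 (SE) for IZ and 0.41 ± 0.28 for BZ. Col4a1, a main chain of the basement membrane network, had -0.29 for IZ and -0.28 for BZ, and Sgca, of the dystroglycan complex, had 0.35 for IZ and -0.05 for BZ. Each of these had a standard error of 0.35. Col4a5 had an unadjusted limma p of 0.0398 for a difference of 0.26 in IZ, and Rpsa, encoding a ribosomal protein also known as a laminin receptor, had 0.0337 for 0.23 in BZ.

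Of 21 integrin ligands, 9 were above and 12 below 0 in IZ, with a median of -0.01, and 12 above and 8 below 0 in BZ, with a median of 0.04, against NIZ. Col3a1, a fibrillar collagen chain bound by collagen receptors, measured 9.39, 9.35 and 9.06 in IZ, 9.33, 9.36 and 9.56 in BZ, and 7.81, 8.30 and 9.22 in NIZ. NIZ numbers 1 and 2 lay below all other samples and number 3 lay close to them, and the differences were 0.83 for IZ and 0.97 for BZ, with unadjusted limma p-values of 0.0322 (IZ) and 0.0160 (BZ). Col1a1 had 0.37 for IZ and 0.52 for BZ, the second with an unadjusted limma p of 0.0289, and Fgb, encoding fibrinogen β, had 0.25 in BZ with 0.0478. Both collagens are also in the list of fibroblast markers. Of the matricellular ligands, Ccn1 had differences of -0.55 for IZ and -0.41 for BZ, and Ccn2 had -0.61 for IZ and -0.33 for BZ, with unadjusted limma p-values of 0.408 and above. Standard errors were 0.62 for Ccn1 and 0.88 for Ccn2.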

How the data were processed

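The authors deposited one table of log2 values for 9 Mouse Transcriptome Assay 1.0 arrays, hybridized with biotinylated cDNA from 100 ng total RNA and, per the labels, processed by robust multi-array average (RMA) in Expression Console 1.0 and Transcriptome Analysis Console 3.0. Background correction, normalization and summarization thus preceded deposit, and the log2 values were tested as given. Of 65534 clusters, 30414 carried 1 gene symbol in the platform annotation, 2146 carried several and 32974 none. All 36 symbols were matched to RefSeq genes.

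Zone means were fitted on all clusters and 9 arrays with limma 3.58.1 (R 4.3.3; lmFit, contrasts.fit, eBayes) and adjusted by Benjamini–Hochberg, with an adjusted p of 0.05 as threshold. The script was tested on simulated data. Single members were also compared by exact permutation tests in SciPy 1.17.1. Arrays have no read depth, and their number limits the precision.

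Values on all arrays were given for 6 members that differed by at least 0.2 without overlap from NIZ or had an unadjusted p under 0.05, and for 9 main chains whatever their change, 14 in all since Lama2 met both. Itga5, Itga11, Itga2b, Itgax, Itgb3, Itgb5, Itgb6 and Lama5 were added after their values were seen, as were the motifs and the orders of sample numbers. Of partner lists, up to 4 genes with the largest differences, and those with an unadjusted p under 0.05, were named. The members and lists were chosen with earlier results of these data known.

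To see whether sample numbers pair the zones, deviations from the zone mean were correlated over all clusters. For numbers 1, 2 and 3 the coefficients were 0.618, 0.204 and 0.516 between BZ and NIZ, which were taken as pairs. IZ and NIZ gave 0.360, 0.0785 and 0.250. Alternatives were a block for the replicate number, quantile or median normalization between arrays, removal of dim clusters, clusters with 1 symbol, the mean over clusters of a gene, a trended and robust variance, 2 zones at a time, the methods' test and leaving out arrays.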

Additional observations from a re-analysis of the deposited data

How the results depend on the processing

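In each of the 22 alternatives, 0 members had an adjusted p under 0.05, although limma called 216 (IZ) and 173 (BZ) of all clusters against NIZ when NIZ replicate 3 was left out, and 68 (IZ) and 65 (BZ) without replicate 3 in all zones. The lowest adjusted p of a member was 0.204 for IZ and 0.214 for BZ without NIZ replicate 3, and 0.136 for IZ and 0.308 for BZ without replicate 3 in all zones, a setting chosen after seeing the data. The number of members at an unadjusted p under 0.05 moved more. For the methods' test the count is of p-values after Bonferroni correction over the 3 pairs of zones and not of unadjusted ones. In IZ against NIZ it was 2, and became 8 with the replicate block (Itga3, Itga4, Itga7, Itgal, Itgax, Itgb2, Itgb3 and Lama5; lowest adjusted p 0.807), 1 with the mean of all clusters of a gene, with only clusters that carry 1 symbol and with only the 2 zones compared, 0 with the methods' test, and 1 to 7 without single samples or numbers. In BZ against NIZ it was 5, and became 2 with median centring and with only the 2 zones compared, 3 with quantile normalization, 0 with the methods' test, and 1 to 4 without single samples or numbers. The replicate block left it at 5, of which 4 were the same members, with Itgax in place of Lama2. A block with only the BZ and NIZ arrays, chosen after seeing the data, also gave 5, Itga4, Itgal, Itgax, Itgb2 and Itgb6. Of these only Itga4 and Itgal were in the main set, and the lowest limma adjusted p of a member was 0.724. In IZ against BZ the number of members was 0 and became 0 to 2 without single samples or numbers.

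The median over the members was 0.042 for IZ against NIZ, 0.066 with median centring and 0.000 to 0.066 without single samples or numbers. For BZ against NIZ it was 0.064, and 0.039 to 0.072 without them. For IZ against BZ it was -0.011, 0.021 with median centring, and -0.045 to -0.000 without them.

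Single-gene differences were followed for the members whose values are given on all arrays, in IZ and BZ against NIZ, and for Lama5 between IZ and BZ. Of 967 such values under the alternatives 43 had the opposite sign, and 23 of the 45 differences kept their sign throughout. Many of the 967 could not differ from the main fit, so 43 of 967 overstates how stable the signs are. A replicate block, the choice of clusters and their mean per gene left each difference of zone means as it was. So did the trended and robust variance, a fit of only the zones compared and the methods' test. The same held where the array left out belonged to a zone outside the comparison. Leaving out a single sample keeps its number in the other zones, so the spread between numbers enters such values. Apart from 0.02 for Lama2 in IZ against NIZ with median centring, the opposite signs came from leaving out samples or numbers. The range without them, IZ against NIZ, was -0.99 to 0.27 for Itga5, -0.40 to 0.93 for Itgam, -0.22 to 0.10 for Itgb1, -0.04 to 0.03 for Lama2, -0.05 to 0.29 for Lama4, -0.06 to 0.22 for Lamb1, -0.04 to 0.30 for Lamb2 and -0.18 to 0.00 for Lamc1. For BZ against NIZ it was -0.02 to 0.12 for Itga2b, -0.37 to 0.03 for Itga3, -0.82 to 0.44 for Itga5, -0.03 to 0.22 for Itga7, -0.43 to 0.90 for Itgam, -0.30 to 0.03 for Itgb1, -0.03 to 0.83 for Itgb2, -0.63 to 0.15 for Itgb3, -0.24 to 1.00 for Itgb6, -0.04 to 0.23 for Lama4, -0.14 to 0.32 for Lama5, -0.06 to 0.18 for Lamb1, -0.11 to 0.23 for Lamb2 and -0.21 to 0.01 for Lamc1. Of differences that kept their sign, IZ against NIZ still ranged from -0.58 to -0.19 for Itga3, 0.19 to 0.92 for Itgb2, -0.96 to -0.18 for Itgb3, 0.17 to 0.60 for Itgb5, 0.10 to 1.14 for Itgb6 and 0.26 to 0.68 for Lama5. For Itga4 it was 0.37 to 0.59 in IZ and 0.28 to 0.51 in BZ, and in BZ 0.10 to 0.21 for Itgb7 and -0.17 to -0.07 for Lama2. The causes were not tested.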
